A study of Mus musculus with 2 samples.

Results

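The genes described are 57 splicing regulators measured in mouse hippocampus. They were chosen by symbol: the SR protein genes (Srsf) and their relatives Tra2a and Tra2b, the hnRNP genes, and the Ptbp, Khdrbs, Rbfox, Nova, Celf, Mbnl and Elavl families, each gene with at least 1 transcript annotated as protein_coding. They are 57 of 21978 genes with such a transcript. The rule uses no measured value, but it was chosen with earlier results of these data known. Of 59 symbols that matched, Hnrnpa1l2-ps and Hnrnpa1l2-ps2 dropped out for want of a protein_coding transcript. Total RNA was sequenced from hippocampal tissue of male B6CASTF1/J mice, hybrids of the strains C57BL/6J and CAST/EiJ, aged 18 to 20 months, in 1 group with 2 biological replicates and no treatment. Each library was made from 300 ng of RNA for a stranded, ribosomal-RNA-reduced protocol with ERCC spike-ins. Both replicates carry the same donor record. Separate animals are not stated, so the spread between the replicates may in part be technical. With 1 group there is no contrast between conditions: the text describes the levels of the regulators, how each gene's RNA divides among transcript types, and how this compares with all detected genes. The smallest two-sided p of an exact sign-flip test on 2 values is 0.5, so no p-value is given, and differences are read against the SD of the 2 replicates (n = 2).

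Splicing regulators are proteins that bind pre-messenger RNA and decide which exons are joined. SR proteins mostly promote the use of exons they bind, hnRNP proteins often repress it, and the Rbfox, Nova, Celf, Mbnl, Elavl, Ptbp and Khdrbs proteins shape the splicing patterns of neurons and muscle. Many of these genes are known, in mouse and human, to control their own output through unproductive splicing. A "poison" exon that carries a stop codon is included, or a coding exon is skipped, and translation of the product then ends well before the last exon junction. Nonsense-mediated decay (NMD) is the pathway that degrades such RNAs. Transcripts with a retained intron are another unproductive kind, often held in the nucleus.

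The gene table held 34563482 expected counts for replicate 1 and 32370292 for replicate 2, so that a count of 0 allowed up to 0.0868 and 0.0927 CPM (counts scaled to library size); such floors cover counting error only. The replicates were not copies of each other, with a chi-square statistic of 5.68 per degree of freedom over the counts of 56 of the regulators. All defining markers of hippocampal principal neurons, inhibitory neurons, astrocytes, oligodendrocytes, microglia and endothelium (23 genes) were above 5 TPM in both libraries. Of 6 choroid plexus markers 3 were detected, and their summed level was 36.6 TPM in replicate 1 and 696 TPM in replicate 2, against 757 and 804 TPM for the principal neuron markers. The part of this difference in the values below was not tested. In bulk tissue, fewer cells of a type and less RNA per cell cannot be told apart.

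Nearly all of the regulators were expressed, and at high levels. A gene was called detected at a level of at least 1 TPM (an abundance corrected for transcript length) in both libraries. By this measure 56 of 57 regulators were detected, against 57.6% of all 21978 genes. The median gene level of the detected regulators was 55.5 TPM, against 14.6 TPM over all 12650 detected genes. The hnRNP family had the highest sum of the 10 families, 1827 ± 14.1 TPM over 20 genes. The 6 Celf genes summed to 632 ± 18.2 TPM, the 11 Srsf genes to 589 ± 6.31 TPM and the 3 Rbfox genes to 372 ± 19.8 TPM. Far below stood the Ptbp genes (85.9 ± 3.91 TPM), Tra2 (63.3 ± 0.502 TPM) and Nova (42.05 ± 0.608 TPM).

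Hnrnpk, a protein that binds C-rich RNA, had the highest level of the 57 genes, 269.8 TPM in replicate 1 and 272 TPM in replicate 2. Celf4, a neuronal binder of GU-rich RNA, had 202.8 TPM in replicate 1 and 226 TPM in replicate 2. Hnrnpa2b1, which takes part in RNA transport into dendrites, had 198 TPM in both. Hnrnpk stood above both in each library. Celf4 also stood above Hnrnpa2b1 in each library. The SD of Celf4 (16.6 TPM) was of similar size to the difference of their means, so the order of these 2 is less settled. Celf2 (172 ± 2.19 TPM), Hnrnpl (162 ± 0.834 TPM), Khdrbs3 (162 ± 1.95 TPM), Hnrnpu (160.3 ± 5.04 TPM) and Rbfox1 (159 ± 6.01 TPM) followed. The last 4 of these lay within the replicate spread of each other. Hnrnpa3 (122.7 ± 6.97 TPM) and Srsf5 (114 ± 9.66 TPM) completed the 10 highest.

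At the other end, Mbnl3 was the regulator not detected, with 0.01 TPM in replicate 1 and 0.03 TPM in replicate 2, or 1 count in each, below the floor of 3 counts. Its relatives Mbnl2 (103 and 102.5 TPM) and Mbnl1 (55.6 and 53.5 TPM), splicing factors that are sequestered in myotonic dystrophy, were both well detected. Khdrbs2 (4.81 ± 0.382 TPM), Nova1 (10.3 ± 0.0354 TPM), Srsf12 (10.4 ± 1.26 TPM) and Celf6 (13.2 ± 2.11 TPM) were the next lowest. Paralogs thus stood far apart within small families. Khdrbs3, also called SLM2 and known for control of neurexin splicing, had 161 and 163 TPM, Khdrbs1 (Sam68) 32.6 and 33.1 TPM, and Khdrbs2 (SLM1) 5.08 and 4.54 TPM. Nova2 stood at 31.3 and 32.1 TPM, above Nova1 at 10.3 and 10.4 TPM.

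The neuronal families were ordered as follows. Rbfox1 had 155 and 164 TPM, Rbfox3, whose protein is the neuronal marker NeuN, 109 and 118 TPM, and Rbfox2 94.0 and 104 TPM. All 3 were higher in replicate 2, and Rbfox2 in replicate 2 lay close to Rbfox3 in replicate 1. Elavl3 had 67.7 and 71.2 TPM, Elavl2 34.5 and 38.9 TPM, Elavl1, the broadly expressed HuR, 31.1 and 32.7 TPM, and Elavl4 26.2 and 22.3 TPM. Elavl3 stood above the others in both libraries, while Elavl2 and Elavl1 differed by little more than their spread. Ptbp2, the neuronal polypyrimidine tract binding protein, had 49.1 and 48.4 TPM, against 23.0 and 19.9 TPM for Ptbp1, which most other cells use in its place. Ptbp3 had 16.5 and 14.9 TPM. Celf5 (106 ± 0.502 TPM), Celf3 (70.8 ± 3.22 TPM) and Celf1 (55.0 ± 0.0212 TPM) lay between Celf2 and Celf6.

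**Figure D1:**
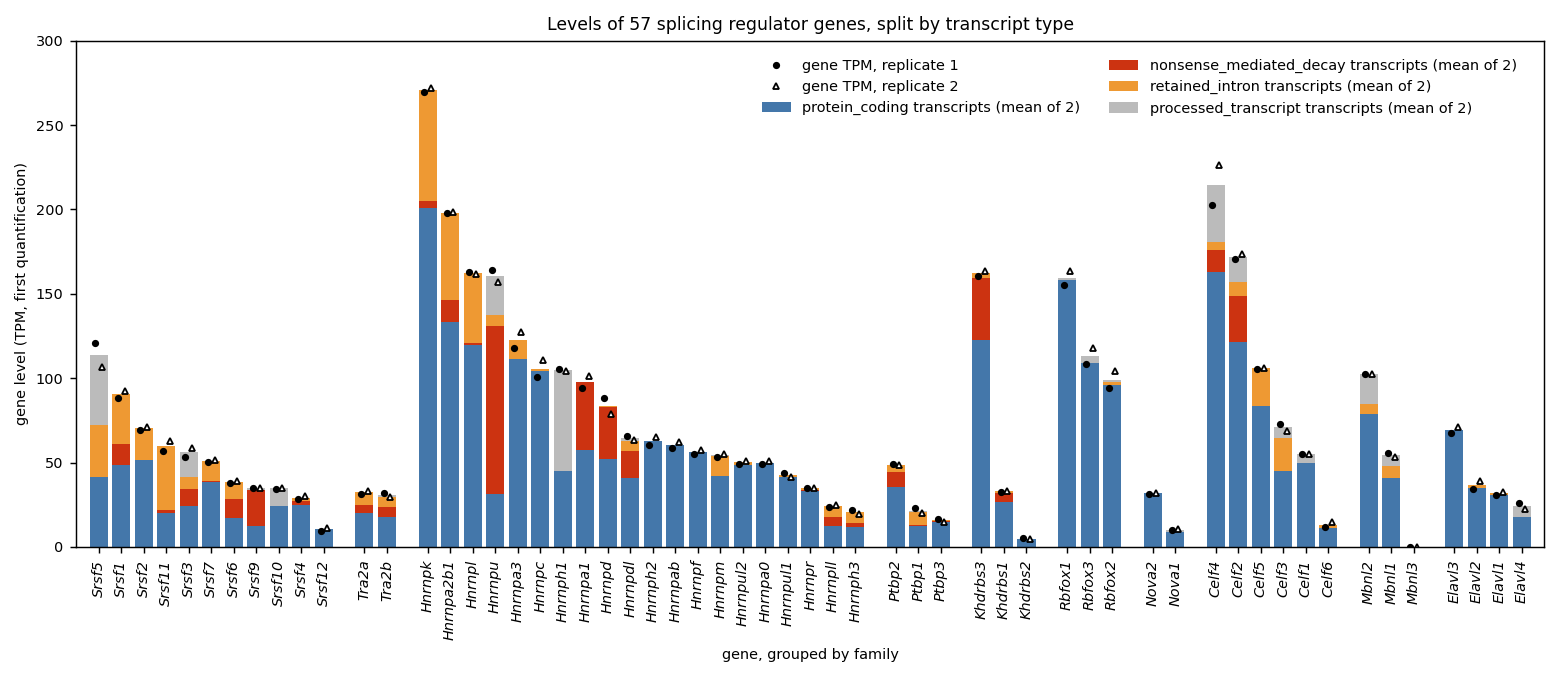
Gene levels (vertical axis, TPM of the first quantification) of the 57 regulators, grouped by family; points are the replicates and stacked bars the mean level of each annotated transcript type. Hnrnpk reaches 271 TPM, and the bar of Hnrnpu, at 160.3 TPM, is mostly in the colour of NMD transcripts.

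The regulators have 553 annotated transcripts, of 4 types. Of these, 299 are protein_coding, 124 are retained_intron (in 41 genes), 77 are processed_transcript, a noncoding type with no further class (in 27 genes), and 53 are nonsense_mediated_decay (in 29 genes). Transcript levels were deposited from 2 quantifications, the first from an alignment to the transcriptome and the second from the reads directly. In the first, coding transcripts held 73.5% ± 1.15 of the summed level of the regulators, retained-intron transcripts 11.3% ± 0.786, NMD transcripts 9.12% in both libraries, and processed transcripts 6.16% ± 0.363. In the second these shares were 74.6%, 10.8%, 7.96% and 6.67%. The division of the summed level thus moved by less than 2 percentage points between quantifications for each type.

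Together, NMD and retained-intron transcripts, called unproductive here by annotation alone, held a median of 15.1% of a gene's level over the 56 detected regulators, against 3.80% over all detected genes. In the second quantification the medians were 13.1% over the regulators and 4.38% over all detected genes. The size rested on the measure: by expected counts, not corrected for length, the medians were 8.995% over the regulators and 1.74% over all detected genes. With processed transcripts counted as unproductive they were 24.0% over the regulators and 9.61% over all detected genes. The regulators are also annotated in more detail, with a median of 8.5 transcripts per gene, against 5 over all detected genes. At least 1 NMD transcript is annotated in 29 of the 56 regulators, against 28.2% of all detected genes, and a retained-intron transcript in 40 of 56, against 58.4%. Shares are therefore given below also over genes with such a transcript annotated.

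NMD transcripts held a large share of the level in more regulators than in detected genes at large. In 15 of 56 regulators they held at least 10% of the gene level in both libraries, against 8.06% of all detected genes. Among genes with an annotated NMD transcript these were 15 of 29 regulators, against 28.5% of all. Restricted further to genes of at least 20 TPM they were 15 of 25 regulators, against 24.3% of all. The median NMD share was 13.4% over the 29 regulators, against 4.62% over the 3573 detected genes with such a transcript. The second quantification also gave 15 regulators, against 10.1% of all detected genes (15 of the 29 with such a transcript, against 35.7%), and 14 of the 15 were shared. The exceptions were Ptbp2, over the threshold in the first alone, and Hnrnph3, over it in the second alone. Those over the threshold in both quantifications and both libraries were 14 regulators, against 6.41% of all detected genes. The members just over 10% were Srsf1 (12.7% and 14.0%) and Tra2a (17.2% and 13.2%), and just under it stood Srsf4 (10.98% and 7.02%) and Hnrnph3 (3.88% and 19.6%).

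**Figure D2:**
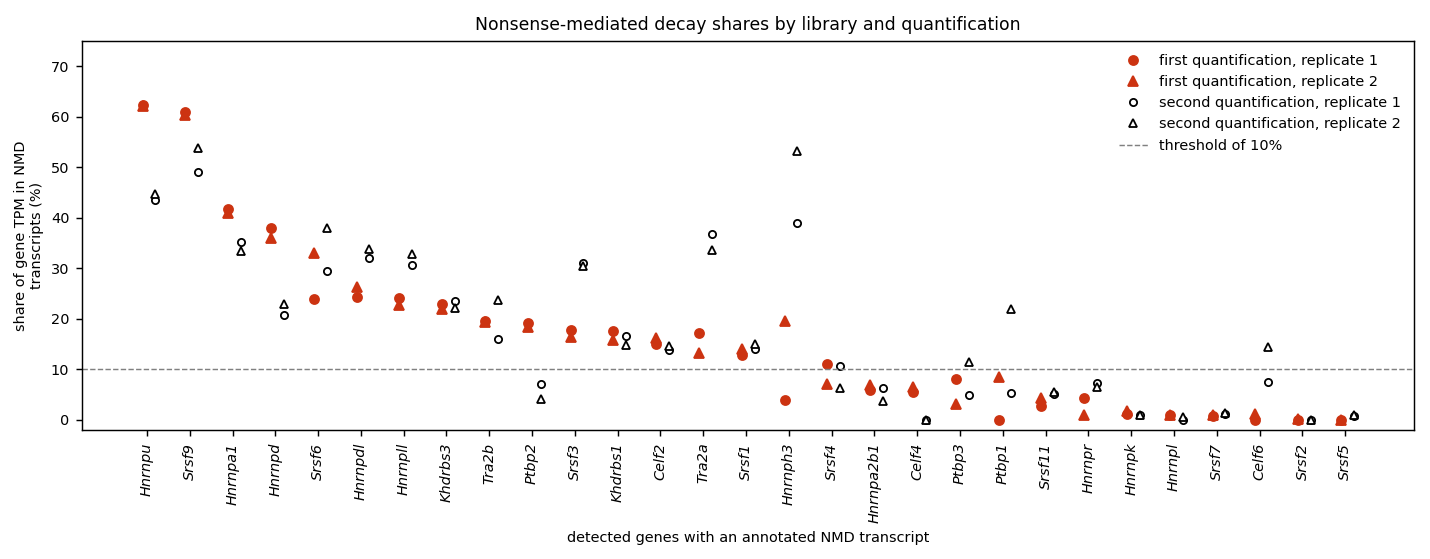
NMD share of the gene level (vertical axis, percent) in the 29 detected regulators with an annotated NMD transcript, by replicate and quantification, ordered by the mean of the first; the dashed line marks 10%. Hnrnpu and Srsf9 stand above 60% in the first quantification and above 43% in the second, and Hnrnph3, Tra2a and Hnrnpu show the widest gaps between the mean shares of the quantifications.

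In the annotated models all 53 NMD transcripts end their reading frame more than 50 bases before the last exon junction. A stop codon at that distance is usually read as premature, so this goes with the annotated type and is no measurement. The transcripts differ in how the stop arises. In 16 transcripts of 10 genes the stop lies in an exon that does not overlap the leading complete coding transcript of the gene, the layout of a poison exon; the genes are 6 of the Srsf family, Tra2a, Tra2b, Hnrnpl and Hnrnpll. In 14 transcripts of 8 genes the stop is that of the coding transcript itself, and an intron is spliced out behind it. In 21 transcripts of 11 genes another stop is reached in an exon that overlaps one of the coding transcript, and in 2 the stop lies in a stretch that the coding transcript splices out. Of the leading NMD transcripts of the 15 regulators over 10%, 6 are of the poison-exon layout, 4 use the coding transcript's own stop, 4 reach another stop in a shared exon and 1 stops in a spliced-out stretch.

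The leading transcripts of the poison-exon layout over 10% belong to Srsf3, Srsf6, Srsf9, Tra2a, Tra2b and Hnrnpll. The ends of their reading frames, with that of Srsf7, are shown because they are where the frame is closed early. Each line gives the last 30 bases of the frame, 5′ to 3′ in the sense of the transcript (GENCODE M21, mm10), with the stop codon in capitals.
Srsf3-201: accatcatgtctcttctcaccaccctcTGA
Srsf6-201: gccatgacgacagcagccttttgccatTAG
Srsf7-203: aggtttcttcgtttgagtcagtcgcctTGA
Srsf9-205: cctgggttggagattacggattcacagTAG
Tra2a-202: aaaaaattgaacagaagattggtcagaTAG
Tra2b-206: aatgagtatttgaagctcaggaataagTGA
Hnrnpll-203: ctgaaacttcttgaaagaagcccacttTGA
The exons that hold these ends are long in the SR and Tra2 genes. That of Srsf3-201 spans 456 bases (chr17:29039454-29039909, plus strand) and has its stop 32 bases in, and that of Srsf7-203 spans 460 bases (chr17:80204622-80205081, minus strand) with its stop 26 bases in. The exon of Srsf6-201 spans 268 bases (chr2:162932815-162933082, plus strand), that of Tra2a-202 306 bases (chr6:49252803-49253108, minus strand) and that of Tra2b-206 276 bases (chr16:22258986-22259261, minus strand). Between paralogs the letters of these ends are unlike: Srsf3-201 and Srsf7-203 share 10 of 30 positions, and Tra2a-202 and Tra2b-206 share 8 of 30, compared without gaps.

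Srsf9, an SR protein of the smaller kind, had the largest NMD share of its family. Srsf9-205 alone held 60.8% of the gene level in replicate 1 and 60.2% in replicate 2, and 49.0% and 53.9% in the second quantification. It had 21.2 and 21.02 TPM, with deposited TPM intervals of 17.7 to 22.4 and 17.4 to 21.7. Its stop lies in a 358-base exon (chr5:115328347-115328704, plus strand), and its coding start is marked as incomplete in the annotation. In both libraries the share lay far above the 10% threshold.

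Srsf6 was the SR gene with the widest gap between libraries. Srsf6-201 held 23.9% of its level in replicate 1 and 33.1% in replicate 2, and 29.5% and 38.0% in the second quantification. Both quantifications thus placed replicate 2 higher, and the deposited intervals of Srsf6-201, 6.67 to 11.02 TPM in replicate 1 and 9.94 to 14.6 TPM in replicate 2, overlapped. Srsf3, the smallest SR protein, had 17.7% and 16.3% in Srsf3-201, but 31.0% and 30.4% in the second quantification. For Srsf3 the libraries lay close together and the quantifications apart. Srsf1, the founding SR protein, had 12.7% and 14.0% in Srsf1-204, with 14.0% and 15.1% in the second quantification. The coding start of Srsf1-204 is incomplete in the annotation. Srsf7, whose poison exon has the same layout, had only 0.772% and 0.996% of its level in Srsf7-203, and its unproductive RNA was of the retained-intron type. Srsf5 and Srsf2 have annotated NMD transcripts too, and both were estimated below 0.3% in each library of the first quantification. The estimate for Srsf2 is loose. The deposited intervals of Srsf2-202 reached up to 6.68 and 8.03 TPM, in a gene of 69.4 and 71.0 TPM.

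In Tra2a, an SR-like activator of exons, Tra2a-202 held 17.2% and 13.2%, against 36.9% and 33.7% in the second quantification. In its paralog Tra2b, NMD transcripts held 19.5% and 19.3%, led by Tra2b-206 at 12.05% and 17.7%. The second quantification gave Tra2b 16.1% and 23.7%. Both Tra2 genes were over 10% in all 4 values.

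Hnrnpu and Srsf9 had the largest NMD shares of the regulators in the first quantification, and their order rested on the measure. By expected counts Srsf9 had 65.4% and 65.9%, and Hnrnpu 43.4% and 44.6%. Hnrnpu, a nuclear scaffold protein, had 62.3% of its level in NMD transcripts in replicate 1 and 62.1% in replicate 2, and 43.6% and 44.7% in the second quantification. Hnrnpu-209, of 351 bases with an incomplete coding start, held 17.2% and 12.5% in the first quantification, but 0.0013% and 0% in the second. With incomplete coding starts left out, the first quantification gave 45.1% and 48.7%. Hnrnpu-206 was the leading transcript of the gene, at 73.9 and 76.4 TPM, with deposited intervals of 69.3 to 74.6 and 71.3 to 76.9. Transcripts of the protein_coding type held 19.4% of the gene level, 31.1 ± 0.198 TPM. By coding level, Hnrnpu was 37th of the 57 genes, against 7th by gene level. The frame of Hnrnpu-206 nevertheless has 2379 coding bases, against 2400 in Hnrnpu-201, the leading complete coding transcript. It differs at its end, where it closes in a 71-base exon (chr1:178325243-178325313, minus strand) that lies inside the long last exon of Hnrnpu-201. Hnrnpu overlaps Cox20 on the opposite strand (15.3 and 14.0 TPM), and whether the counting used strand is not stated in the sources used here.

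**Figure D3:**
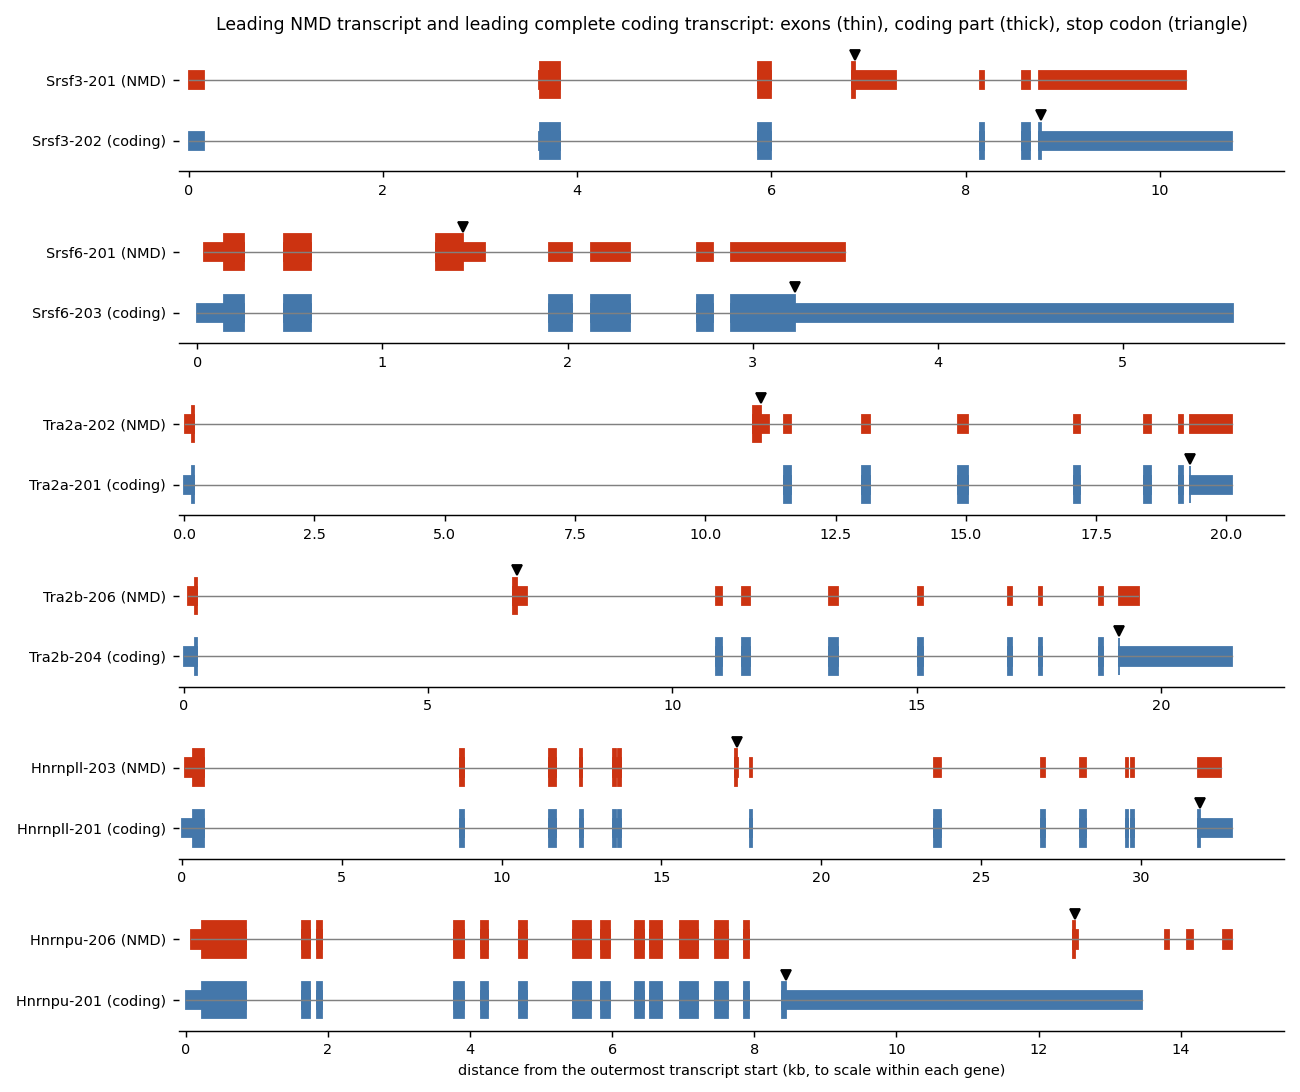
Exon maps (horizontal axis, distance in kb from the outermost transcript start, to scale within each gene) of the leading NMD transcript above the leading complete coding transcript for 6 regulators; thick parts are coding, thin parts noncoding exons, and triangles mark the stop codon. In Srsf3, Srsf6, Tra2a, Tra2b and Hnrnpll the NMD stop falls in an exon that the coding transcript lacks, while Hnrnpu-206 keeps 2379 coding bases and continues through 3 junctions after its stop.

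In 4 of the 15 regulators over 10% the leading NMD transcript ends at the coding transcript's own stop codon. These ends are shown because the same codon closes the frame in coding and NMD transcripts. In Khdrbs1-201 and Khdrbs3-201 the stop lies in the last exon, so an intron behind it sets the NMD transcript apart. Hnrnpa1-202 and Hnrnpd-211 also splice out an intron behind the stop, and Hnrnpa1-203 and Hnrnpd-208 have 2 junctions there.
Hnrnpa1-203: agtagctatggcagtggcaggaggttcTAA
Khdrbs1-202: tacagagagcatccatatggacgttatTAA
Khdrbs3-204: tacagagaccagccatatggcagatacTGA
Hnrnpd-208: ggacatcaaaatagctacaaaccatacTAA
In 3 of them the number of coding bases equals that of the coding transcript: 960 in Hnrnpa1, 1329 in Khdrbs1 and 1038 in Khdrbs3. The frame of Hnrnpd-208 has an incomplete start in the annotation. The ends of Khdrbs1-202 and Khdrbs3-204 share 23 of 30 positions. Hnrnpa1, a repressor of exon use, had 41.7% and 40.9% of its level in NMD transcripts, and 35.3% and 33.5% in the second quantification. Hnrnpd, the AU-rich element binder AUF1, had 37.9% and 36.0%, against 20.8% and 22.9% in the second quantification. Khdrbs3 had 23.0% and 21.9%, and 23.6% and 22.1% in the second. Khdrbs1 had 17.6% and 15.8%, and 16.6% and 14.9% in the second. The values of the Khdrbs genes moved by under 2 points between quantifications, while those of Hnrnpd moved by over 13.

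Hnrnpll and Hnrnpdl were the other hnRNP genes over the threshold. Hnrnpll-203, of the poison-exon layout with an 83-base exon (chr17:80044940-80045022, minus strand), held 24.2% and 22.6%, and 30.7% and 32.7% in the second quantification. Its paralog Hnrnpl, which binds CA-rich RNA, also has such a transcript, Hnrnpl-213, which held 1.04% in both libraries. NMD transcripts of Hnrnpdl, an hnRNP D relative, held 24.4% and 26.3%, and 32.1% and 33.7% in the second quantification. Their leading transcript, Hnrnpdl-205, has an incomplete coding start. Hnrnph3 had 3.88% and 19.6%, but 39.0% and 53.2% in the second quantification, the widest gap between libraries (15.7 points) of the 29 genes. The intervals of Hnrnph3-204, 0.0004 to 2.37 TPM in replicate 1 and 2.05 to 5.40 TPM in replicate 2, overlapped in a narrow range. Hnrnph3 overlaps Rufy2 on the opposite strand, at 28.9 and 28.8 TPM.

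The Ptbp genes are known for skipping of a coding exon that shifts the frame. The ends of these frames are shown because Ptbp1 and its neuronal paralog Ptbp2 close them at matching positions.
Ptbp1-201: gaggcgtctacggtgatgtgcagcgggTGA
Ptbp2-206: gaggtgtttatggagatgtgcagcgcgTGA
The pair shares 25 of 30 positions, and in both the stop lies 25 bases into a 93-base exon, 361 bases before the last junction (Ptbp1, chr10:79862449-79862541, plus strand; Ptbp2, chr3:119724094-119724186, minus strand). In both, 27 of the 30 bases lie in that exon. Ptbp2-206, of 576 bases with an incomplete coding start, held 19.1% and 18.4% of the Ptbp2 level in the first quantification. By expected counts of that quantification, NMD transcripts of the gene held 3.94% and 3.69%. In the second quantification they held 7.06% and 4.15% of the level. NMD transcripts of Ptbp1 held 0% of the level in replicate 1 and 8.41% in replicate 2, and 5.37% and 22.0% in the second quantification. Ptbp3 had 8.12% and 3.23%, and 4.94% and 11.4% in the second. The order of the 3 genes therefore rested on the quantification, and for Ptbp1 and Ptbp3 the libraries lay apart as well.

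Celf2 was the Celf gene over the threshold, with 14.9% and 16.3% in Celf2-228, a transcript with an incomplete coding start, and 13.8% and 14.5% in the second quantification. Celf4 had 5.53% and 6.41% in Celf4-208, a transcript of 413 bases, but 0 in both libraries of the second quantification. Celf6 had 0 and 1.09%, and 7.54% and 14.4% in the second. No NMD transcript is annotated for the Rbfox, Nova, Mbnl and Elavl genes, so nothing could be assigned to one. Of the leading NMD transcripts, several have an incomplete coding start, so their stop rests on a partial model. With all such transcripts left out, an alternative added after seeing the data, 9 regulators were over 10% in both libraries, against 6.48% of all detected genes. Over genes with any NMD transcript annotated these were 9 of 29 regulators, against 820 of 3573 detected genes. The regulators thus stood closer to other genes by this measure than with all NMD transcripts counted.

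Retained-intron transcripts held a larger part of the summed level than NMD transcripts, but the regulators stood closer to other genes in this respect. In 20 of 56 regulators they held at least 10% in both libraries, against 25.3% of all detected genes. Among genes with an annotated retained-intron transcript these were 20 of 40 regulators, against 43.3% of all, with a median share of 11.1%, against 9.89%. Restricted to genes of at least 20 TPM they were 17 of 35, against 37.7%. In the second quantification they were 18 of 40, against 44.7%. Shares near the background are no result about the regulators as a group, and the values below describe the genes one by one. In both quantifications and both libraries 16 regulators were over 10%, against 20.6% of all detected genes.

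Of the 11 Srsf genes 8 have an annotated retained-intron transcript, and 7 were over 10%. The share over 10% was 25.3% of all detected genes and 43.3% of those with such a transcript. Srsf11 had the largest retained-intron share of the 56 detected regulators in both quantifications. It had 64.9% in replicate 1 and 61.2% in replicate 2, and 52.4% and 51.0% in the second quantification, spread over 11 annotated transcripts and led by Srsf11-208 (20.1% and 17.7%). Srsf1 had 35.4% and 29.8%, Srsf5 27.9% and 26.7%, and Srsf2 28.9% and 24.1%. Srsf6 had 29.7% and 22.2%, Srsf7 21.7% and 24.7%, and Srsf3 15.1% and 11.7%. In Srsf2, Srsf5 and Srsf6 1 transcript carried most of this, Srsf2-203 at 20.1 and 17.1 TPM, Srsf5-212 at 30.4 and 24.9 TPM and Srsf6-204 at 11.2 and 8.63 TPM. For these 3 the second quantification differed from the first by under 5 points in each library. Srsf2 overlaps Mettl23 (10.8 and 13.2 TPM) and Mfsd11 (15.4 and 16.0 TPM) on the opposite strand.

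Tra2a had 23.7% and 22.2% and Tra2b 19.9% and 19.8%, so that both Tra2 genes were over 10% for each type. Of the hnRNP genes, Hnrnph3 had 31.7% and 28.05%, Hnrnpll 28.1% and 24.7%, Hnrnpa2b1 27.9% and 24.4%, Hnrnpl 26.1% and 24.7%, Hnrnpk 24.7% and 24.0%, and Hnrnpm 22.7% and 20.7%. Hnrnpl and Hnrnpll kept these shares in the second quantification (26.1% and 25.3%, and 28.6% and 26.3%). Hnrnpa2b1 stood at 40.9% and 36.1% there, while Hnrnpk stood under the threshold at 7.57% and 5.43% and Hnrnpm at 8.61% and 8.63%. The leading transcripts of these 2 genes were short. Hnrnpk-215, of 522 bases, had 32.8 and 32.0 TPM in the first quantification and held 0% in the second, and Hnrnpm-213, of 591 bases, had 8.22 and 8.04 TPM and held 0% and 0.584%. Hnrnpm shares its locus with March2 on the same strand (34.3 and 32.6 TPM).

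Ptbp1 had 37.6% and 33.1%, the largest retained-intron share after Srsf11 in the first quantification alone, and 20.7% and 22.6% in the second, where several regulators stood above it. It overlaps Plppr3 on the opposite strand (12.1 and 13.2 TPM). Ptbp2 had 10.3% and 7.19%, but 27.9% and 43.1% in the second quantification. Celf3 had 27.2% and 28.01%, with 29.2% and 30.7% in the second. Celf5 had 23.0% and 19.9%, led by Celf5-207 of 605 bases, and 7.87% and 11.05% in the second, and Celf6 11.4% and 16.9%, with 0 and 4.27% in the second. Of the remaining families Mbnl1 alone was over the threshold, at 13.9% and 12.2%, with 22.9% and 29.3% in the second quantification. The Rbfox, Nova, Elavl and Khdrbs genes were all under 5% in both libraries of both quantifications, where such a transcript is annotated at all. Mbnl3, not detected in the first quantification, had 1.41 and 1.40 TPM in the second, 99.1% and 97.1% of it in Mbnl3-206, a retained-intron transcript.

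**Figure D4:**
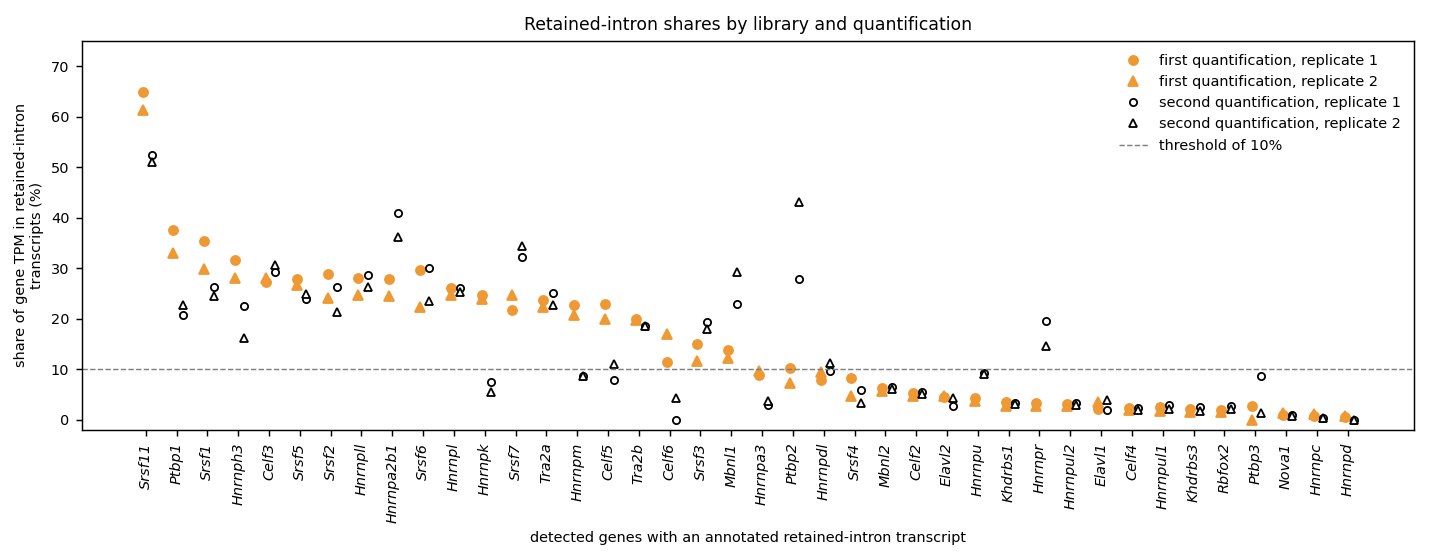
Retained-intron share of the gene level (vertical axis, percent) in the 40 detected regulators with such a transcript annotated, by replicate and quantification, ordered by the mean of the first; the dashed line marks 10%. Srsf11 stands apart above 50% in all 4 values, and Ptbp2, Hnrnpr, Mbnl1 and Hnrnpk show wide gaps between quantifications.

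Retained-intron shares were higher in replicate 1 than in replicate 2 in 30 of the 40 regulators, and in 63.4% of 7247 detected genes with a share above 0. The same was seen in the second quantification in 25 regulators, against 60.9% of genes. The median difference over all these genes was 0.747 points. NMD shares of the first quantification were higher in replicate 1 in 14 regulators and in replicate 2 in 14, and those of the second in replicate 1 in 9 and in replicate 2 in 19.

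Both types reached 10% in both libraries in 6 regulators, against 3.01% of all detected genes: Hnrnpll, Srsf1, Srsf3, Srsf6, Tra2a and Tra2b. Unproductive transcripts held at least 50% of the level in both libraries in 4 regulators, against 4.7% of all detected genes, and in 6 in the second quantification, against 5.05%. The 4 were Hnrnpu, Srsf6, Srsf9 and Srsf11. In 2 of 56 regulators the leading transcript was unproductive in both libraries, against 3.67% of all detected genes; these were Hnrnpu-206 and Srsf9-205. In the second quantification the leading transcript was unproductive in 4 regulators, against 4.14%. As a part of the 56, the regulators with at least 50% were 7.14%, and 10.7% in the second quantification. Those with an unproductive leading transcript were 3.57%, and 7.14% in the second. Counts this small are not read as a result about the regulators as a group.

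**Figure D5:**
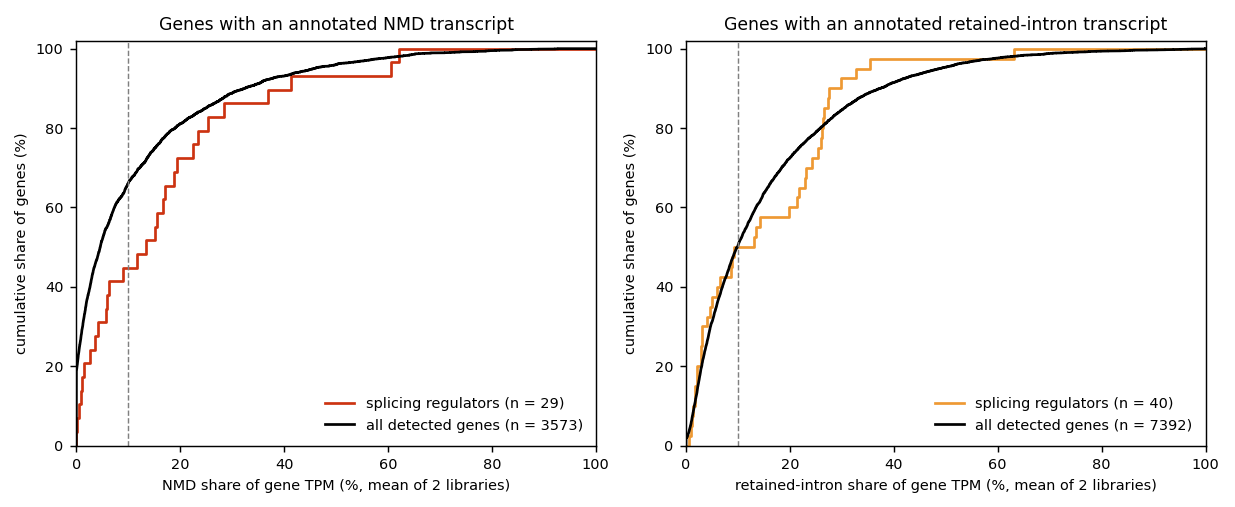
Cumulative share of genes (vertical axis, percent) by NMD share (left) and retained-intron share (right) of the gene level, mean of both libraries, for regulators and all detected genes with such a transcript annotated; dashed lines mark 10%. The regulator curve lies right of the other for NMD over most of its range, with a median of 13.4% in regulators and 4.62% in all detected genes, and crosses it for retained introns, with a median of 11.1% in regulators and 9.89% in all detected genes.

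Coding levels changed the order of the regulators. Srsf5 was 10th by gene level and 28th by coding level (36.5% of its level in coding transcripts), since processed transcripts, led by Srsf5-206 at 34.7 and 32.5 TPM, held 36.2% beside the retained introns. Srsf11 was 26th and 44th. Hnrnph1, which binds G-rich RNA, has no annotated NMD or retained-intron transcript, yet coding transcripts held 43.2% of its level and processed transcripts 56.8%. Srsf3 (25.9%), Srsf10 (29.8%) and Elavl4 (27.2%) also had large mean shares of their level in processed transcripts. For Elavl4 the libraries lay far apart, at 40.2% in replicate 1 and 14.2% in replicate 2. In contrast Rbfox1, with no NMD or retained-intron transcript annotated, was 8th by gene level and 3rd by coding level, with 99.3% in coding transcripts. Hnrnph2, Hnrnpab, Hnrnpf, Hnrnpa0, Nova2, Elavl3, Khdrbs2 and Srsf12 had all of their level in coding transcripts. All of these but Khdrbs2 have only protein_coding transcripts annotated, so the annotation fixed that share in advance.

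Near-identical copies elsewhere in the genome can share reads with 10 of the 57 genes (at least 97% identity over at least 500 bases). Hnrnpa3 has 17 such copies, which together held 23.2 and 15.8 TPM. Hnrnpa1 has 4, among them Gm10052, identical over 960 bases and at 22.6 and 23.8 TPM. The 2 copies of Hnrnpk held 14.1 and 13.6 TPM, and those of Tra2b, Srsf5 and Srsf3 between 4.59 and 7.29 TPM each. The levels and transcript shares of these genes are uncertain to that extent. Those of Hnrnpf, Hnrnpc, Hnrnph2 and Srsf10 were below 1 TPM in sum.

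The quantifications ordered the genes alike but not equally. Over the 29 regulators with NMD transcripts, mean shares of the first and second quantification had a Pearson correlation of 0.798 and a Spearman correlation of 0.808, and 7 genes lay more than 10 points apart. Over the 40 with retained-intron transcripts the correlations were 0.802 and 0.818, with 12 genes more than 10 points apart. These are correlations across genes on the same reads, and genes are not independent replicates. The median distance was 4.21 points for NMD and 2.11 points for retained introns, larger than the median distance between libraries, 1.26 and 1.43 points. For these shares, the spread between replicates therefore understates the uncertainty that the choice of quantification adds.

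Gene levels of the regulators differed little between the libraries. The log2 ratio of replicate 2 to replicate 1, after scaling by TMM, had a median of -0.01 over 56 regulators and 0.00 over 13196 genes. No regulator differed by 1.5-fold or more in either direction, against 1.29% of all genes tested, a share too small to set a count of 0 against. At a lower threshold, a log2 ratio of 0.32, the count was also 0 of 56, against 5.65% of all genes tested. With 1 library on each side no test was possible. The widest ratios were those of Khdrbs2 (-0.26), Srsf5 (-0.25), Celf3 (-0.18), Hnrnph3 (-0.15) and Hnrnpdl (-0.14) on the side of replicate 1. On the side of replicate 2 stood Celf6 (0.21), Elavl2 (0.14), Celf4 (0.13), Elavl4 (0.11) and Hnrnpc (0.09). Scaling by ERCC spike-ins moved the medians to -0.18 for the regulators and -0.17 for all genes.

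The machinery that recognises and acts on such transcripts was expressed as well. All 10 genes of a list of NMD factors were detected, with a median of 16.8 TPM, and Smg8 was the lowest at 6.81 TPM. Only Smg1, Smg5 and Smg6 have an annotated NMD transcript, so an NMD share was possible in these alone. In the first quantification none of them had 10% or more in both libraries, and Smg5, at 4.91% and 1.12%, had the largest such share. In the second Smg1 alone was over 10%, at 10.05% and 13.9%. The 6 genes of the exon junction complex, which marks spliced junctions, had a median of 21.7 TPM, from Magohb (3.70 TPM) to Rnps1 (49.5 TPM), and none was over 10% in NMD transcripts in both libraries of the first quantification. Magohb alone of the 6 has annotated NMD transcripts, which held 20.4% and 6.88% there, and 61.5% and 24.6% in the second. Retained-intron transcripts held at least 10% in both libraries of the first quantification in 3 of the 10 NMD factors and 3 of these 6 genes. The share was 25.3% of all detected genes and 43.3% of those with such a transcript annotated. Of 10 kinases and import factors of SR proteins, 4 were over 10% in NMD transcripts, Clk1, Prpf4b, Srpk1 and Srpk2, against 8.06% of all detected genes, and 6 in retained-intron transcripts, against 25.3%. Among detected genes with such a transcript annotated the shares were 28.5% and 43.3%. In the second quantification the 10 genes gave counts of 6 and 7, against 10.1% and 26.1% of all detected genes. Among those with such a transcript annotated, the second quantification gave 35.7% and 44.7%. All 10 have an annotated retained-intron transcript, and all but Srpk3 and Dyrk1a an annotated NMD transcript. Prpf4b had 46.4% and 47.6% in NMD transcripts. Clk1, which phosphorylates SR proteins, was the highest of them at 62.5 TPM, with 30.1% and 39.0% in NMD and 45.1% and 40.4% in retained-intron transcripts, and Srpk3 the lowest at 1.32 TPM. The median unproductive share of these 10 genes was 56.0%, against 15.1% in the regulators and 3.80% over all detected genes. These medians make no allowance for how many such transcripts are annotated per gene.

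Of 37 further splicing regulators outside the 57, 35 were detected, and the median over all 37 was 52.0 TPM. In 5 of them NMD transcripts held at least 10% in both libraries, against 8.06% of all detected genes. Retained-intron transcripts did in 21, against 25.3%. Among detected genes with such a transcript annotated the shares were 28.5% and 43.3%. The helicase gene Ddx5 was the highest at 306 TPM, Tardbp, which codes for TDP-43, had the largest NMD share of the list, 36.0% and 35.9%, and the epithelial regulator Esrp2 was the lowest, at 0 and 0.03 TPM. The median unproductive share of this list, 18.3%, lay close to that of the 57 regulators.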

How the data were processed

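Total RNA-seq of hippocampal tissue was used from 2 biological replicates of 1 group, with replicate numbers from the labels. For each library the authors deposited a gene table and a transcript table with expected counts, TPM, bounds of a TPM interval whose level is not stated, and the percent of a gene's level held by each transcript. These have the layout of RSEM and come from a transcriptome alignment, per the deposited notes. A second transcript table, derived from the reads, has the layout of kallisto and gives estimated counts and TPM, per the file headers. The assembly is mm10 and the annotation GENCODE M21, per the deposited notes; tool names, versions and the use of strand are not given in these notes. The assembly represents C57BL/6J, so CAST/EiJ reads may align less well.

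Transcript types were taken from the transcript names of the second table. Shares are summed TPM of a type over the summed TPM of the gene. Gene detection meant 1 TPM in both libraries, and a share was called at 10% in both. The stop codon of each NMD transcript was placed in GENCODE M21 models and compared with the leading complete coding transcript. Expected counts were rounded and scaled by TMM in edgeR 4.0.16 (R 4.3.3) with a prior count of 0.5 and a mean CPM of at least 1; DESeq2 1.42.0 size factors were an alternative. Copies were searched with blastn 2.17.0, and tables handled in Python 3.11.15 with pandas 2.3.3 and numpy 2.4.6. The steps were tested on simulated data. Genes named are the highest and lowest by level, share, difference between quantifications and library ratio, all members of small families, and the extremes of each list; not every gene so named is reported here. Other genes named, chosen after their values were seen, are those at a threshold, with a copy or an overlapping gene, or with much processed RNA. The genes and lists were chosen with earlier results of these data known. Library differences were first counted at a log2 ratio of 0.32; the 1.5-fold threshold replaced it after that result was seen, and both are given.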

Additional observations from a re-analysis of the deposited data

How the results depend on the processing

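Of the 6 summary values only the log2 ratio of the libraries has a sign, so they are compared by size below. The order of single genes changed under the alternatives tried. Srsf9 stood above Hnrnpu in NMD share in the second quantification and by expected counts, and the order of the Ptbp genes changed between quantifications. The median level of all 57 regulators, 55.0 TPM, was 92.0 TPM in the second quantification, 132 TPM when rescaled over nuclear protein-coding genes, and 55.5 TPM over detected regulators. The count with an NMD share of at least 10%, 15, was 8 at a threshold of 20% and 9 without incomplete coding starts. By shares of expected counts, not corrected for length, it was 12 (without Celf2, Ptbp2 and Srsf1), and the retained-intron count 16 rather than 20. The median unproductive share, 15.1%, was 13.1% in the second quantification, 8.995% by expected counts and 24.0% with processed transcripts counted; leaving out a replicate gave 15.1% to 16.5%. The median log2 ratio of the libraries, -0.01, was -0.18 with ERCC scaling, where that of all genes was -0.17. Leaving out regulators with a near-identical copy gave 12 for NMD and 16 for retained introns; this and the incomplete-start alternative were chosen after seeing the data. The cause of these changes was not tested. For the counts at 20%, by expected counts and without copies, no share over all detected genes was taken. Those counts therefore do not compare the regulators with other genes. The remaining alternatives kept counts within 1.5 times and medians within the replicate spread. No paired analysis was possible because there is 1 group. At this depth a count of 0 allows up to 0.0868 and 0.0927 CPM.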
